A study of Mus musculus with 9 samples.

Results

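Transcripts of 38 genes that make, sense or remove reactive oxygen were followed in the spinal cord of mice whose cord was cut through at T9. The genes were chosen by name, with earlier results of these data known. All 38 were found by gene symbol among the 34745 genes of the deposited table. They comprise 6 NADPH oxidase genes that produce oxidant, 3 regulatory genes and 29 protective genes, and all 38 passed the filter on low counts. The study compared spinal cord at 3 times, with 3 libraries each of poly-A-selected RNA. These were day 0 (titled N, which the labels do not explain), day 3 and day 21 after the transection, with no sham group. The sources used here do not give strain, age, sex, the length of cord taken or whether each library is a separate animal. The p-values therefore measure only the spread between these libraries, which may be technical.

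The phagocyte NADPH oxidase is a membrane enzyme that moves electrons from NADPH onto oxygen and so makes superoxide. Its core is a heterodimer, and cytosolic subunits and a small GTPase join it when the cell is activated. Superoxide dismutases turn superoxide into hydrogen peroxide, and catalase, glutathione peroxidases and peroxiredoxins remove the peroxide. The last 2 families are recharged by glutathione and thioredoxin, which draw on NADPH in turn, so the same cofactor feeds both sides. Many protective genes are targets of the transcription factor NRF2 (gene Nfe2l2), which KEAP1 marks for degradation until oxidants or electrophiles modify KEAP1. In injured cord, microglia and blood-borne phagocytes are the best known users of the oxidase.

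NRF2 binds the antioxidant response element, searched here as TGACNNNGC on both strands of a 300-base window from 250 bases before to 50 bases after each RefSeq start site (GRCm38.p6). Of 32 genes with a window, 9 (28.1%) held the element, against 14% of 27025 genes. They were Nfe2l2, Sod1, Prdx1, Txnrd1, Srxn1, G6pdx, Gstm5, Mgst1 and Ucp2. Shown here are the 4 with the highest fold change at day 3 among those whose transcript passed the test then, because they carried the strongest day 3 rises of the 9. The stretches lie before the RefSeq start site at chr7:100493247-100493345 on the plus strand (Ucp2), chr2:75704850-75704913 on the minus strand (Nfe2l2), chr6:138140426-138140524 on the plus strand (Mgst1) and chr4:116685421-116685519 on the plus strand (Prdx1). The deposited gene locus begins earlier for Mgst1 (138140316) and Ucp2 (100493337). The Mgst1 stretch therefore lies inside that locus and the Ucp2 stretch runs into it. Capitals mark the match, which reads as searched in Nfe2l2 and as its reverse complement in the other 3. A match is a description of the letters and not of binding.
Ucp2: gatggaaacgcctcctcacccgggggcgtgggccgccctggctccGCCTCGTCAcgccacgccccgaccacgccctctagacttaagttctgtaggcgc
Nfe2l2: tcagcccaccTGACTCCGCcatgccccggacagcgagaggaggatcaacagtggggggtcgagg
Mgst1: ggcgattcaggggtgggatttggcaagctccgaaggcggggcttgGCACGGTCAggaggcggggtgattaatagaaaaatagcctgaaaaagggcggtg
Prdx1: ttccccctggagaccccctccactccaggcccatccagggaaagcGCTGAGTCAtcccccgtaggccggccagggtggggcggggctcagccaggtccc

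Libraries held 14299679 to 24022923 counted reads, and 16494 genes were tested with edgeR. The tissue label was met by its markers, with summed levels of 2111 to 2136 FPKM over 12 neuron markers and 1940.2 to 2044 FPKM over 8 oligodendrocyte markers at day 0. FPKM is the count scaled by the length of the gene model and by the library total. Skeletal muscle markers summed to 12.7 to 16.8 FPKM at day 0, 5.88 to 6.32 at day 3 and 105 to 176 at day 21, and their part in the day 21 values was not tested. One library stood apart. By limma's sample weights, in which a low value marks a library that varies more than the others, day 21 replicate 2 had 0.0583, where day 0 replicate 1 had 0.354 and the others 1.02 to 2.03. In it 18 of the 38 genes, 17 of them protective, were over 1.5 times the mean of the other 2 day 21 libraries. Gpx1 at 0.332 times and Txnip at 0.595 times were far below it. The median ratio was 1.48 over the 38 genes and 1 over all tested genes, of which 20.3% were over 1.5 times and 22.0% under the inverse. Calls at day 21 among the 38 genes and the further pathway genes are therefore counted with and without this library. For the 38 genes a value without it is given where a call changes. Counts of cell type markers are given with all libraries, and also without this one where they change.

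**Figure D1:**
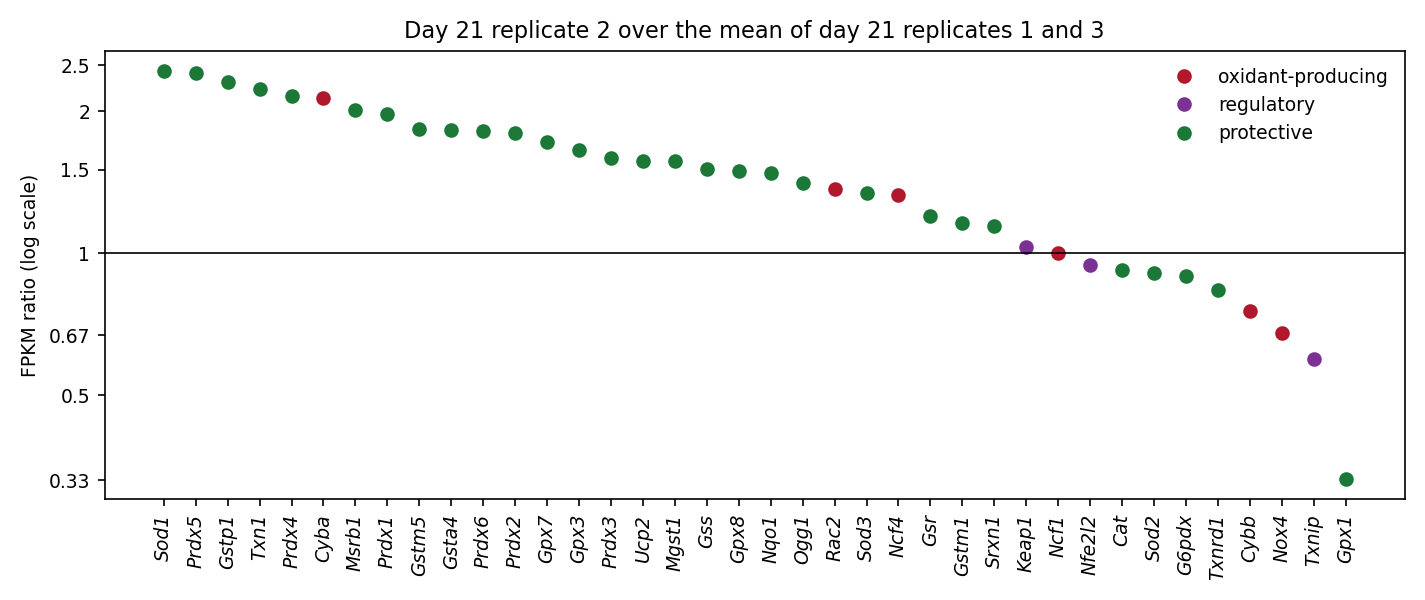
Ratio of FPKM in day 21 replicate 2 to the mean of day 21 replicates 1 and 3 on a log axis, 1 point per gene, coloured by side. Sod1 lies highest at 2.43 and Gpx1 lowest at 0.332, and 18 points lie over 1.5.

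All 6 oxidase genes rose strongly by day 3 and remained higher at day 21. Of the 29 protective genes 14 rose (48.3%) and 2 fell (6.90%) at day 3 against day 0. Their counts at day 21 against day 0, with all libraries, were 6 higher (20.7%) and 1 lower (3.45%). At day 3 against day 0, 22 of the 38 genes rose and 2 fell by edgeR (adjusted p under 0.05), where 24.8% of all tested genes rose and 19.5% fell. At day 21 against day 0, 13 rose and 2 fell, where 17.9% of all tested genes rose and 11.3% fell. At day 21 against day 3 none rose and 14 fell, where 11.7% of all tested genes rose and 16.1% fell. At an unadjusted p under 0.05, 1 gene was higher and 16 lower at day 21 than at day 3. DESeq2 and limma on log2(FPKM + 1) each called 1 gene higher there, and limma voom with sample weights called 2. The mean level with all libraries was highest at day 3 for 25 genes, at day 21 for 8 and at day 0 for 5. Of those highest at day 21, Sod1, Prdx2, Prdx5, Gsta4 and Gstp1 were so only through day 21 replicate 2. In each of these genes day 21 replicates 1 and 3 lay below the day 0 mean. Both comparisons with day 0 share the day 0 libraries.

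Without day 21 replicate 2 the counts at day 21 moved most on the falling side. Against day 0 they became 15 higher and 9 lower, where 25.1% and 22.4% of all tested genes were called. Against day 3 they became 2 higher (Cybb and Sod2) and 26 lower, where 23.5% and 25.7% were called. At day 3 against day 0 they became 24 higher and 3 lower, where 32.0% and 29.2% were called. Of 26 calls of a gene between 2 times that edgeR made without this library and not with it, limma voom with sample weights on all 9 libraries made 25, the exception being Gsta4 at day 21 against day 0. That fit gave this library a weight of 0.0583 and so hardly used it. Its calls, here and below, are therefore no separate check on leaving the library out.

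**Figure D2:**
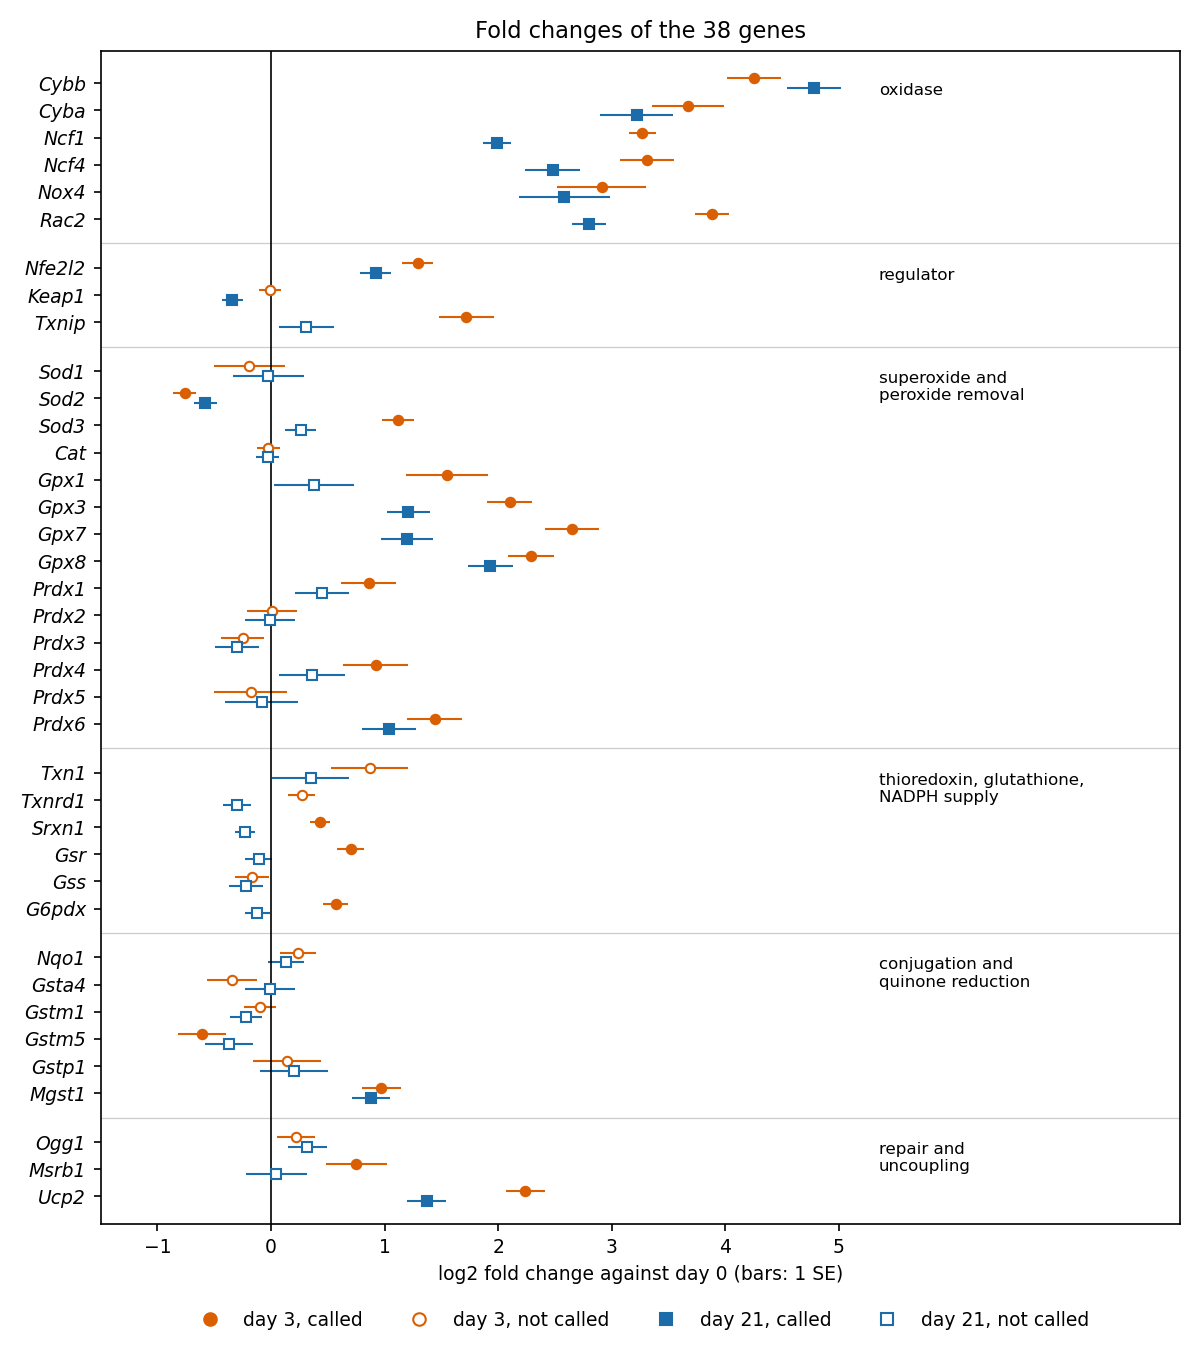
Fitted log2 fold change against day 0 of each gene at day 3 (circles) and day 21 (squares), with bars of 1 SE and filled symbols where edgeR called the change. The 6 oxidase genes lie between 1.99 and 4.78, whereas the other genes lie between -0.76 and 2.65.

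Cybb encodes the catalytic subunit of the phagocyte oxidase (chrX:9435252-9487771, GRCm38, minus strand). It stood at 0.0927, 0.151 and 0.117 FPKM at day 0, at 2.34, 2.04 and 2.64 FPKM at day 3, and at 3.73, 2.93 and 4.04 FPKM at day 21. No groups overlapped, and Cybb was the only oxidase gene with its highest mean at day 21. It rose 19.0-fold at day 3 (log2 fold change 4.25 ± 0.24 SE, edgeR adjusted p = 1.43e-06) and 27.6-fold at day 21 (4.78 ± 0.24, edgeR adjusted p = 2.36e-06). The log2 fold change of day 21 against day 3 was 0.54 ± 0.19 with edgeR adjusted p = 0.0602. That difference passed the test without day 21 replicate 2 (0.68, edgeR adjusted p = 0.00360) and without day 0 replicate 1 (edgeR adjusted p = 0.0417). It also passed with all libraries under edgeR with upper-quartile scaling, DESeq2, either limma fit on log2 FPKM and limma voom with sample weights (adjusted p = 0.0247, 0.0309, 0.0159 or 0.0368, and 0.000345). The day 0 level rests on 13 to 15 counts per library.

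Cyba encodes the partner of that subunit in the membrane heterodimer (chr8:122424772-122432940, minus strand). It was by level the most abundant of the 6 at 6.32, 4.27 and 3.97 FPKM at day 0, 66.8, 60.5 and 65.5 FPKM at day 3, and 37.8, 77.4 and 34.7 FPKM at day 21. Every injured library exceeded every day 0 library, but at day 21 replicate 2 lay above all of day 3 and the other 2 below it. Cyba rose 12.7-fold at day 3 (3.67 ± 0.32, edgeR adjusted p = 2.03e-05) and 9.33-fold at day 21 (3.22 ± 0.32, edgeR adjusted p = 0.000113, and 2.77 without day 21 replicate 2). For day 21 against day 3 Cyba had -0.44 ± 0.28 with edgeR adjusted p = 0.278, and -0.88 with edgeR adjusted p = 0.000609 without day 21 replicate 2.

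Ncf1 encodes the organising cytosolic subunit (chr5:134220053-134229625, minus strand). Its libraries read 1.28, 1.06 and 1.36 FPKM at day 0, 12.4, 12 and 12.8 FPKM at day 3, and 5.51, 5.36 and 5.20 FPKM at day 21. The 3 times formed separate and narrow bands, with day 21 in between. Ncf1 rose 9.67-fold at day 3 (3.27 ± 0.12, edgeR adjusted p = 1.45e-07) and 3.98-fold at day 21 (1.99 ± 0.12, edgeR adjusted p = 5.09e-06). Ncf1 was lower at day 21 than at day 3 (-1.28 ± 0.11, edgeR adjusted p = 7.36e-05).

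Rac2 encodes the GTPase that switches the oxidase on in blood cells (chr15:78559169-78572783, minus strand). It showed the same order at 1.1, 1.15 and 1.18 FPKM at day 0, 17.4, 17.7 and 17.2 FPKM at day 3, and 8.05, 10.6 and 7.37 FPKM at day 21. None of the 3 times overlapped. Its fold changes were 14.7-fold at day 3 (3.88 ± 0.15, edgeR adjusted p = 2.03e-07) and 6.95-fold at day 21 (2.80 ± 0.15, edgeR adjusted p = 3.31e-06), and day 21 was lower than day 3 (-1.08 ± 0.13, edgeR adjusted p = 0.000529).

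Ncf4, a further cytosolic subunit (chr15:78244801-78262580, plus strand), had 0.427, 0.223 and 0.436 FPKM at day 0, 3.96, 3.57 and 3.82 FPKM at day 3, and 1.79, 2.69 and 2.26 FPKM at day 21. These groups did not overlap either. It rose 9.89-fold at day 3 (3.31 ± 0.24, edgeR adjusted p = 6.57e-06) and 5.57-fold at day 21 (2.48 ± 0.24, edgeR adjusted p = 0.000111). The fall at day 21 against day 3 (-0.83 ± 0.21, edgeR adjusted p = 0.0180) was lost without day 3 replicate 1, day 3 replicate 3 or day 21 replicate 1 (edgeR adjusted p 0.0601 to 0.0650).

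Nox4 is the member of the family that works outside the phagocyte complex and releases mainly hydrogen peroxide (chr7:87246096-87398710, plus strand). It was the scarcest of the 38, with 14, 3 and 5 counts at day 0, 39, 68 and 38 counts at day 3, and 37, 27 and 45 counts at day 21. Both later times exceeded every day 0 library and overlapped each other. Nox4 rose 7.50-fold at day 3 (2.91 ± 0.39, edgeR adjusted p = 0.000313) and 5.97-fold at day 21 (2.58 ± 0.40, edgeR adjusted p = 0.00159), and day 21 against day 3 gave -0.33 ± 0.33 with edgeR adjusted p = 0.501. Leaving out day 21 replicate 2 changed no call of Ncf1, Rac2, Ncf4 or Nox4. Against day 0 their day 21 log2 fold changes were then 2.01, 2.65, 2.34 and 2.74, and against day 3 they were -1.27, -1.23, -0.96 and -0.16 (the last with edgeR adjusted p = 0.703).

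**Figure D3:**
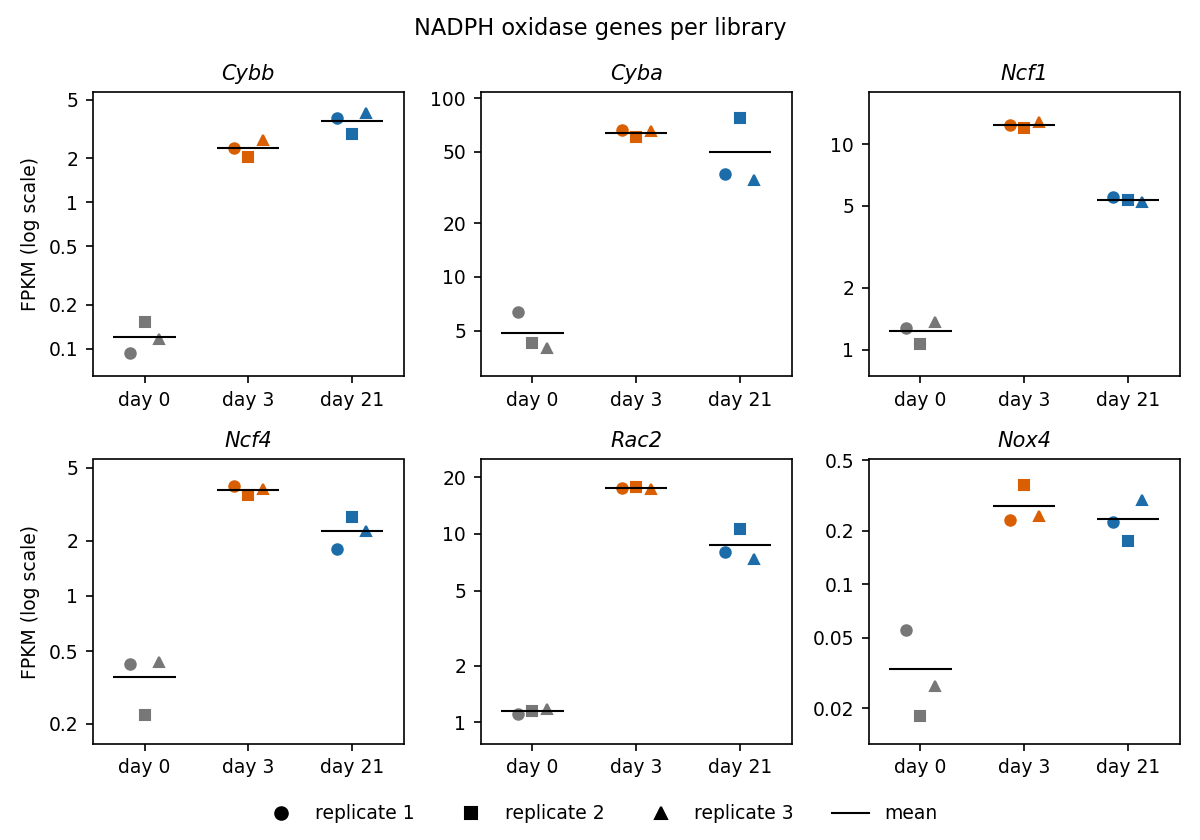
FPKM of the 6 oxidase genes on log axes in the 3 libraries of each day, with the mean as a bar and symbols for the replicate number. Every day 3 and day 21 library lies above every day 0 library in all 6 panels.

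Markers of macrophages and other leukocytes rose with the oxidase genes. All 10 of them rose at both times by edgeR, and their summed level was 65.1 to 78.4 FPKM at day 0, 949 to 974 FPKM at day 3 and 687 to 1163 FPKM at day 21. Of 8 tested neutrophil markers 6 rose at day 3 and 8 at day 21, with sums of all 9 at 9.93 to 15.4, 43.5 to 49.0 and 48.3 to 105 FPKM at day 0, 3 and 21. Homeostatic microglia markers rose for 5 of 7 at each time, with sums of 33 to 36.5, 83.4 to 84.0 and 68.6 to 76.8 FPKM. No marker of the 3 lists was at 0 in all libraries of a day. In bulk tissue more cells of a type and more RNA per cell cannot be told apart.

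Set against the geometric mean of the 10 macrophage and leukocyte markers, the oxidase genes differed among themselves. Per 100 FPKM of that mean, Cybb had 2.54 to 3.99 FPKM at day 0, 5.62 to 6.92 at day 3 and 9.45 to 16.2 at day 21, with no overlap. Ncf1 had 28.0 to 38.6, 31.7 to 33.4 and 17.3 to 20.9 FPKM on the same scale, so that day 21 lay below both earlier times. Rac2 had 30.1 to 33.5, 44.5 to 48.9 and 29.6 to 34.2 FPKM, with day 3 apart and day 0 and day 21 overlapping. For Cyba (112 to 173, 167 to 171 and 139 to 249.6) and Ncf4 (5.89 to 12.4, 9.85 to 10.1 and 6.71 to 9.09), the day 0 range overlapped that of both later times. Ncf4 was lower at day 21 than at day 3 without overlap. Cyba at day 21 had 142 and 139 in replicates 1 and 3, below all of day 3, and 249.6 in replicate 2. With 3 libraries against 3 an exact two-sided permutation test cannot go below 0.10, so these ratios are given without a test.

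**Figure D4:**
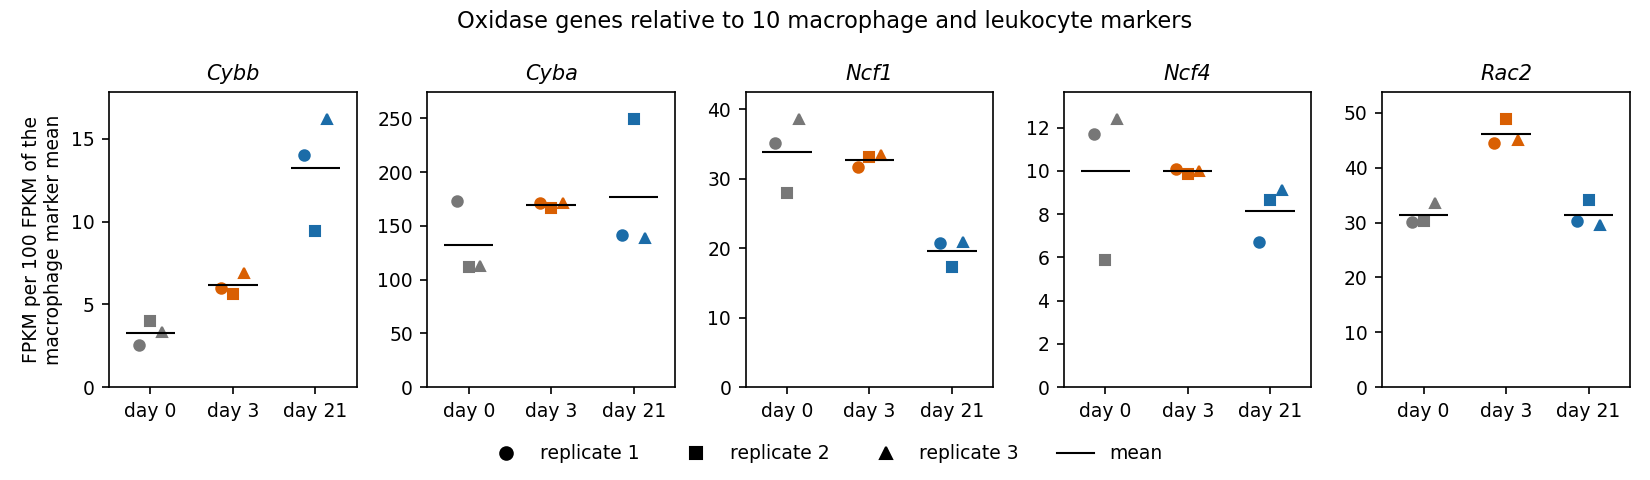
FPKM of 5 oxidase genes per 100 FPKM of the geometric mean of 10 macrophage and leukocyte markers, per library, with the mean as a bar. Cybb is highest at day 21 (9.45 to 16.2), whereas Ncf1 is lowest there (17.3 to 20.9).

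Among the regulators, Nfe2l2 rose and its inhibitor Keap1 did not. Nfe2l2 (chr2:75675513-75704641, minus strand) had 7.26, 10.1 and 8.73 FPKM at day 0, 21.7, 21.7 and 22.8 FPKM at day 3, and 17.6, 17.3 and 19.0 FPKM at day 21. Its groups did not overlap. It rose 2.44-fold at day 3 (1.29 ± 0.14, edgeR adjusted p = 8.34e-05) and 1.90-fold at day 21 (0.92 ± 0.14, edgeR adjusted p = 0.00142). Day 21 against day 3 gave -0.37 ± 0.14 with edgeR adjusted p = 0.0816, and edgeR adjusted p = 0.0411 without day 0 replicate 1. The Nfe2l2 values without day 21 replicate 2 were 0.97 against day 0 and -0.32 against day 3 (edgeR adjusted p = 0.000243 and 0.0639), and limma voom with sample weights called Nfe2l2 lower at day 21 than at day 3 (adjusted p = 0.00470).

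Keap1 had 9.90, 8.28 and 8.94 FPKM at day 0, 9.48, 9.37 and 9.10 FPKM at day 3, and 7.61, 7.90 and 7.79 FPKM at day 21. Day 3 lay within the day 0 range and day 21 just below both. The log2 fold change at day 3 was -0.0077 ± 0.094 (edgeR adjusted p = 0.956), and Keap1 fell 1.27-fold at day 21 against day 0 (-0.34 ± 0.094, edgeR adjusted p = 0.0237) and 1.26-fold against day 3 (edgeR adjusted p = 0.0272). The call against day 0 was lost without day 0 replicate 1, day 0 replicate 3 or day 21 replicate 1 (edgeR adjusted p 0.0612 to 0.0793). The call against day 3 was lost without day 0 replicate 3, any day 3 library, or day 21 replicate 1 or 3 (edgeR adjusted p 0.0507 to 0.0988). Both held without day 21 replicate 2 (edgeR adjusted p = 0.00444 and 0.00496). Both were also lost with all libraries under upper-quartile scaling, either limma fit on log2 FPKM, a fit of only the 2 times compared and the replicate block, with adjusted p of 0.0629 to 0.14 against day 0 and 0.0693 to 0.102 against day 3. Without a filter on low counts the call against day 3 was lost too (edgeR adjusted p = 0.0840).

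Txnip encodes an arrestin-like protein that binds and blocks thioredoxin. It had 3.58, 5.49 and 3.73 FPKM at day 0, 14.8, 14.4 and 14.6 FPKM at day 3, and 6.57, 3.97 and 6.76 FPKM at day 21. Day 3 stood well above both other times, and day 21 replicate 2 lay within the day 0 range. Txnip rose 3.29-fold at day 3 (1.72 ± 0.24, edgeR adjusted p = 0.000406) and was lower at day 21 than at day 3 (-1.41 ± 0.24, edgeR adjusted p = 0.00298). Day 21 against day 0 gave 0.31 ± 0.24 with edgeR adjusted p = 0.367, and 0.53 with edgeR adjusted p = 0.0319 without day 21 replicate 2.

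Summed markers of several cell types were highest at day 3, without overlap with the other times. They were the endothelial, Schwann cell, fibroblast and meningeal, and homeostatic microglia markers. Of 7 fibroblast and meningeal markers all rose at day 3 and 6 were lower at day 21 than at day 3 by edgeR. The sums of these 7 were 37.5 to 40.1, 539 to 542 and 281 to 349.5 FPKM at day 0, 3 and 21. Of 6 endothelial markers 5 rose at day 3 and all 6 were lower at day 21 than at day 3 by edgeR, with sums of 47.2 to 57.2, 152 to 159.8 and 44.5 to 65.7 FPKM at day 0, 3 and 21. Of 6 Schwann cell markers 5 rose at day 3 and all 6 were lower at day 21 than at day 3, with sums of 211 to 259, 701 to 719 and 336 to 413 FPKM. Astrocyte markers had 5 of 8 higher and 3 lower at day 3, with sums of 1251 to 1289, 2650.1 to 2699 and 2314 to 2664 FPKM. No endothelial, Schwann cell, astrocyte or fibroblast and meningeal marker was at 0 in any library. The part of any of these cell types in the day 3 peaks of Txnip, Sod3, Gpx3, Gsr, G6pdx and Srxn1 was not tested.

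Of the 14 enzymes that remove superoxide or peroxide, 8 rose and 1 fell at day 3, and 4 rose and 1 fell at day 21 against day 0 by edgeR. The shares were 57.1% and 7.14%, then 28.6% and 7.14%, where all tested genes had 24.8% and 19.5%, then 17.9% and 11.3%. Against day 3, 4 were lower at day 21 (28.6%, and 16.1% over all tested genes). On leaving out day 21 replicate 2, 5 were higher and 4 lower at day 21 than at day 0, and 1 was higher and 9 lower than at day 3. All tested genes then had 25.1% higher and 22.4% lower against day 0, and 23.5% and 25.7% against day 3. The 4 glutathione peroxidases, all of which rose at day 3, had the highest fold changes of the group then. Gpx3 encodes the secreted plasma form (chr11:54902453-54910377, plus strand). It had 12.2, 14.6 and 13.7 FPKM at day 0, 61.8, 58.0 and 60.1 FPKM at day 3, and 29.6, 46.5 and 26.9 FPKM at day 21, without overlap. It rose 4.27-fold at day 3 (2.10 ± 0.20, edgeR adjusted p = 3.03e-05) and 2.32-fold at day 21 (1.21 ± 0.19, edgeR adjusted p = 0.00172), and day 21 was lower than day 3 (-0.88 ± 0.19, edgeR adjusted p = 0.00862). Both calls held without day 21 replicate 2, at 0.95 and -1.14 (edgeR adjusted p = 4.2e-05 and 1.47e-05).

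Gpx7 and Gpx8 encode peroxidases of the endoplasmic reticulum that support protein folding. Gpx7 (chr4:108400390-108406961, minus strand) had 1.98, 2.58 and 2.66 FPKM at day 0, 16.2, 15.1 and 15.7 FPKM at day 3, and 5.33, 8.40 and 4.45 FPKM at day 21. Its 3 times stood apart, and its rise of 6.29-fold at day 3 (2.65 ± 0.24, edgeR adjusted p = 2.27e-05) was the highest of the 29 protective genes. It rose 2.30-fold at day 21 (1.2 ± 0.23, edgeR adjusted p = 0.00500), and fell at day 21 against day 3 (-1.45 ± 0.22, edgeR adjusted p = 0.00171). These Gpx7 values became 0.92 and -1.74 without day 21 replicate 2 (edgeR adjusted p = 0.00125 and 1.65e-05). Gpx8 had 4.71, 3.25 and 3.18 FPKM at day 0, 19.0, 17.6 and 20.4 FPKM at day 3, and 12.9, 20 and 13.8 FPKM at day 21. Both later times exceeded day 0, and day 21 replicate 2 lay within the day 3 range. Gpx8 rose 4.90-fold at day 3 (2.29 ± 0.20, edgeR adjusted p = 2.24e-05) and 3.81-fold at day 21 (1.93 ± 0.20, edgeR adjusted p = 0.000169). Day 21 against day 3 gave -0.36 ± 0.19 (edgeR adjusted p = 0.192), and -0.56 with edgeR adjusted p = 0.0107 without day 21 replicate 2. Markers of fibroblasts and meninges moved the same way, with 7 of 7 higher at day 3, 6 of 7 at day 21 and sums of 37.5 to 40.1, 539 to 542 and 281 to 349.5 FPKM at day 0, 3 and 21. The day 21 count of these markers was 7 of 7 without day 21 replicate 2. Their part in the Gpx7 and Gpx8 values was not tested.

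Gpx1, the widespread cytosolic and mitochondrial form (chr9:108338903-108340343, plus strand), had 28.7, 25.7 and 26.3 FPKM at day 0, 78.9, 78.2 and 87.5 FPKM at day 3, and 48.1, 16.2 and 49.6 FPKM at day 21. Day 3 stood above both other times, and day 21 replicate 2 lay below all of day 0 while the other 2 lay above it. Gpx1 rose 2.92-fold at day 3 (1.55 ± 0.36, edgeR adjusted p = 0.00661). Day 21 against day 0 gave 0.38 ± 0.35 (edgeR adjusted p = 0.455), and 0.75 with edgeR adjusted p = 1.87e-05 without day 21 replicate 2. The fall at day 21 against day 3 (-1.17 ± 0.35, edgeR adjusted p = 0.0364) was lost on leaving out any single library of day 0 or day 3 (edgeR adjusted p 0.0574 to 0.0993) or on fitting only the 2 times (edgeR adjusted p = 0.0942). Without day 21 replicate 2 it was -0.80 with edgeR adjusted p = 1.4e-05.

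The superoxide dismutases went 3 ways. Sod3, the extracellular form, had 7.24, 8.42 and 7.74 FPKM at day 0, 17.8, 18 and 16.8 FPKM at day 3, and 9.68, 12.3 and 8.62 FPKM at day 21. The 3 times did not overlap. Sod3 rose 2.17-fold at day 3 (1.12 ± 0.14, edgeR adjusted p = 0.000174) and was lower at day 21 than at day 3 (-0.86 ± 0.14, edgeR adjusted p = 0.00204), while day 21 against day 0 gave 0.26 ± 0.14 (edgeR adjusted p = 0.198). Sod3 had -1.0 against day 3 and 0.12 against day 0 without day 21 replicate 2 (edgeR adjusted p = 3.86e-05 and 0.347).

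Sod2, the manganese enzyme of the mitochondrial matrix (chr17:13007839-13018119, plus strand), had 44.0, 36.9 and 39.8 FPKM at day 0, 24.6, 24.7 and 24.4 FPKM at day 3, and 30.5, 27.5 and 30.1 FPKM at day 21. All injured libraries lay below all day 0 libraries. Sod2 fell 1.69-fold at day 3 (-0.76 ± 0.10, edgeR adjusted p = 0.000251) and 1.49-fold at day 21 (-0.58 ± 0.1, edgeR adjusted p = 0.00273). With all libraries it was the only one of the 38 genes that edgeR called lower than day 0 at both times. With limma voom and sample weights Gss (-0.19 at day 3 and -0.43 at day 21, adjusted p = 0.0207 and 0.000707) and Gstm5 (-0.55 and -0.61, adjusted p = 1.91e-05 and 9.17e-05) were called lower at both times too. Day 21 against day 3 gave 0.18 ± 0.1 (edgeR adjusted p = 0.205), and 0.24 with edgeR adjusted p = 0.0137 without day 21 replicate 2. Its reads are partly uncertain, since 21.0% of its 50-base stretches also occur at other annotated loci. Neuron markers fell for 12 of 12 at day 3 and 10 of 12 at day 21, with sums of 2111 to 2136, 1067 to 1080.0 and 1429 to 1477 FPKM at day 0, 3 and 21. The day 21 count of these markers was 11 of 12 without day 21 replicate 2. Their part in the Sod2 fall was not tested.

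Sod1, the cytosolic copper-zinc enzyme and the most abundant protective transcript, had 377, 276 and 288 FPKM at day 0, 292, 275 and 282 FPKM at day 3, and 258, 556 and 201 FPKM at day 21. Day 21 replicate 2 alone stood above all other libraries. The log2 fold change was -0.19 ± 0.31 at day 3 (edgeR adjusted p = 0.646) and -0.023 ± 0.31 at day 21 against day 0 (edgeR adjusted p = 0.969), and -0.56 with edgeR adjusted p = 0.00827 at day 21 without that library. Cat, the peroxisomal catalase, kept to 38.7 to 45.5 FPKM over all 9 libraries, with log2 fold changes of -0.023 ± 0.10 at day 3 (edgeR adjusted p = 0.875) and -0.031 ± 0.10 at day 21 (edgeR adjusted p = 0.851). The Cat groups overlapped at every pair of times.

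Peroxiredoxins divided by member. Prdx6, which also acts on phospholipid peroxides, had 23.2, 18.1 and 14.8 FPKM at day 0, 55.0, 48.9 and 53.9 FPKM at day 3, and 30.0, 60.1 and 36.4 FPKM at day 21. Every later library exceeded day 0. Prdx6 rose 2.72-fold at day 3 (1.44 ± 0.24, edgeR adjusted p = 0.00113) and 2.06-fold at day 21 (1.04 ± 0.24, edgeR adjusted p = 0.0110), both against day 0. For Prdx6 day 21 against day 3 gave -0.40 with edgeR adjusted p = 0.250. It passed the test without day 21 replicate 2 (-0.72, edgeR adjusted p = 0.00726) and with limma voom and sample weights on all libraries (-0.75, adjusted p = 0.000606).

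Prdx1 and Prdx4, the cytosolic form and the form of the endoplasmic reticulum, rose by less. Prdx1 had 33.2, 24.6 and 23.9 FPKM at day 0, 50, 51.6 and 51.8 FPKM at day 3, and 30.6, 60.4 and 30.8 FPKM at day 21. Day 3 exceeded day 0, and at day 21 replicates 1 and 3 lay within the day 0 range. Prdx1 rose 1.81-fold (0.86 ± 0.24, edgeR adjusted p = 0.0185), a call lost without day 0 replicate 2 or 3 or day 3 replicate 2 or 3 (edgeR adjusted p 0.0504 to 0.0697). Prdx4 had 8.19, 5.59 and 5.21 FPKM at day 0, 12.3, 13.1 and 11.8 FPKM at day 3, and 6.40, 13.9 and 6.51 FPKM at day 21. Day 3 again exceeded day 0. Prdx4 rose 1.89-fold (0.92 ± 0.29, edgeR adjusted p = 0.0281), lost without day 0 replicate 2 or 3 or any day 3 library (edgeR adjusted p 0.0595 to 0.0984). By edgeR with all libraries neither was called lower at day 21 than at day 3. Both were called lower without day 21 replicate 2 (-0.79 for Prdx1 and -1.0 for Prdx4, edgeR adjusted p = 0.00032 and 0.000722), and with limma voom and sample weights on all libraries (-0.77 and -0.98, adjusted p = 1.07e-05 and 2.77e-05).

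The mitochondrial forms Prdx3 and Prdx5 and the cytosolic form Prdx2 passed no edgeR test with all libraries. Their day 3 log2 fold changes were -0.25 ± 0.19 for Prdx3, -0.18 ± 0.32 for Prdx5 and 0.0091 ± 0.22 for Prdx2 (edgeR adjusted p = 0.337, 0.677 and 0.978). Day 21 replicate 2 read 49.8, 88.4 and 40.4 FPKM for them, where the other day 21 libraries read 28.6 and 33.9, 43.6 and 29.6, and 21.7 and 23.3 FPKM. Without it Prdx3 (-0.55, edgeR adjusted p = 0.00724) and Prdx5 (-0.61, edgeR adjusted p = 0.0192) were lower at day 21 than at day 0, and Prdx2 was lower at day 21 than at day 3 (-0.33, edgeR adjusted p = 0.0455). With limma voom and sample weights on all libraries these 3 differences were called as well (-0.47, -0.44 and -0.33, adjusted p = 0.00302, 0.0402 and 0.00644), and Prdx3 was also called lower at day 21 than at day 3 (-0.32, adjusted p = 0.0171).

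**Figure D5:**
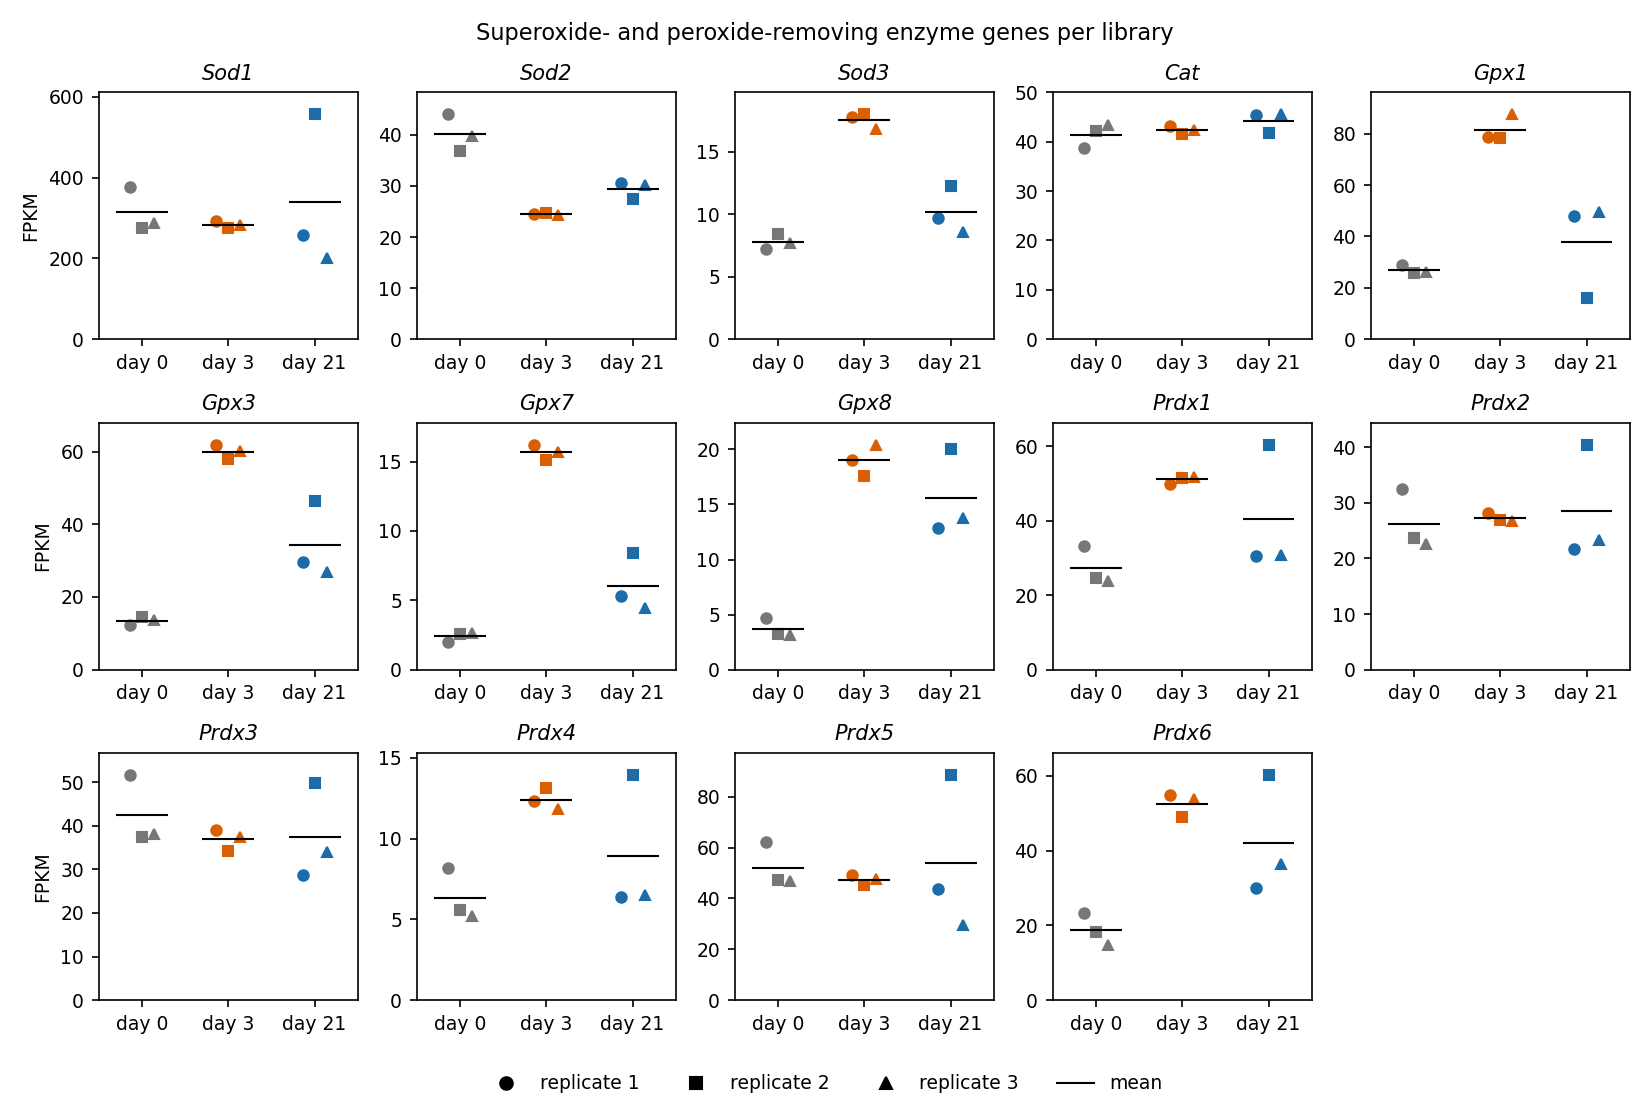
FPKM of the 14 superoxide- and peroxide-removing genes in the 3 libraries of each day on axes from 0, with the mean as a bar and symbols for the replicate number. Gpx3 and Gpx7 peak at day 3, Sod2 is lower at both later times than at day 0, and the square of day 21 replicate 2 stands apart in several panels.

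In the thioredoxin, glutathione and NADPH supply group, 3 of 6 genes rose at day 3, none passed the test at day 21 against day 0 in either direction, and 4 were lower at day 21 than at day 3 by edgeR. Over all tested genes 24.8% rose at day 3, and 17.9% rose and 11.3% fell at day 21 against day 0. Against day 3, 16.1% of all tested genes were lower at day 21. With day 21 replicate 2 left out, 2 of the 6 genes were lower at day 21 than at day 0 and all 6 were lower than at day 3. Over all tested genes 22.4% and 25.7% were then lower. At an unadjusted p under 0.05 none was higher and 2 were lower at day 21 than at day 0, DESeq2 called Srxn1 lower (adjusted p = 0.0231), limma on log2 FPKM called none, and limma voom with sample weights called Srxn1 and Gss lower (adjusted p = 0.00269 and 0.000707). Gsr, which regenerates reduced glutathione, had 10.4, 9.46 and 9.86 FPKM at day 0, 16.5, 17.6 and 16.0 FPKM at day 3, and 10.3, 11.3 and 8.48 FPKM at day 21. G6pdx, the first enzyme of the pentose phosphate pathway and a main source of NADPH, had 21.1, 24.3 and 22.8 FPKM at day 0, 35.4, 34.6 and 35.2 FPKM at day 3, and 22.6, 21.0 and 24.6 FPKM at day 21. Day 3 stood above both other times for both genes, and day 0 and day 21 overlapped.

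Gsr rose 1.63-fold at day 3 (0.70 ± 0.12, edgeR adjusted p = 0.00106) and G6pdx 1.49-fold (0.57 ± 0.11, edgeR adjusted p = 0.00269). Both were lower at day 21 than at day 3, by -0.81 ± 0.12 for Gsr (edgeR adjusted p = 0.00120) and -0.70 ± 0.11 for G6pdx (edgeR adjusted p = 0.00210). Leaving out day 21 replicate 2 gave -0.89 and -0.63 (edgeR adjusted p = 6.42e-05 and 0.000218), and against day 0 neither was called (-0.19 and -0.058, edgeR adjusted p = 0.14 and 0.593). Srxn1, which repairs over-oxidised peroxiredoxins, had 47.5, 41.5 and 43.8 FPKM at day 0, 61.4, 62.0 and 61.9 FPKM at day 3, and 39.5, 44.9 and 39.2 FPKM at day 21. Day 3 was again apart. Srxn1 rose 1.35-fold at day 3 (0.43 ± 0.09, edgeR adjusted p = 0.00411) and was lower at day 21 than at day 3 (-0.66 ± 0.091, edgeR adjusted p = 0.000915). Its day 21 value against day 0 was -0.23 ± 0.09 (edgeR adjusted p = 0.0886), and -0.28 with edgeR adjusted p = 0.00340 without day 21 replicate 2.

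Txn1, thioredoxin itself, had 47.9, 25.7 and 23.6 FPKM at day 0, 60.5, 60.9 and 62.3 FPKM at day 3, and 32.5, 71.2 and 31.3 FPKM at day 21. Day 3 exceeded day 0, where replicate 1 was the high one. The day 3 log2 fold change of 0.87 ± 0.34 missed the threshold (edgeR adjusted p = 0.0632) and passed it without day 0 replicate 1 or day 21 replicate 2 (edgeR adjusted p = 0.0274 and 0.0153). With all libraries it also passed with DESeq2, either limma fit on log2 FPKM, edgeR on only the 2 times and limma voom with sample weights (adjusted p = 0.0305, 0.0472 or 0.0481, 0.0251 and 1.45e-05). Txn1 at day 21 against day 3 was called lower without day 21 replicate 2 (-1.0, edgeR adjusted p = 0.0201). Txnrd1, the cytosolic reductase of thioredoxin, averaged 25.3 ± 2.44 FPKM at day 0, 31.6 ± 1.70 at day 3 and 22.4 ± 2.36 at day 21 (SD, n = 3 each). It was lower at day 21 than at day 3 (-0.57 ± 0.12, edgeR adjusted p = 0.00822), and day 3 against day 0 gave 0.27 ± 0.12 (edgeR adjusted p = 0.0956, and 0.00888 without day 21 replicate 2, 0.0126 on only the 2 times and 0.00132 with limma voom and sample weights). Gss, which completes glutathione synthesis, stayed at 3.11 to 4.71 FPKM over all libraries and passed no edgeR test with all libraries. It was called lower at day 21 without day 21 replicate 2 (-0.42 against day 0 and -0.26 against day 3, edgeR adjusted p = 0.00153 and 0.0200), and with limma voom and sample weights on all libraries (-0.43 and -0.24, adjusted p = 0.000707 and 0.0157).

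Of the 6 genes of conjugation and quinone reduction 1 rose and 1 fell at day 3 by edgeR, and 1 rose at day 21. Each is 16.7%, where 24.8% of all tested genes rose and 19.5% fell at day 3, and 17.9% rose at day 21. In the fit without day 21 replicate 2, 1 was higher and 2 were lower at day 21 than at day 0, and 3 were lower than at day 3. All tested genes then had 25.1% higher and 22.4% lower against day 0, and 25.7% lower against day 3. Mgst1, a microsomal transferase with peroxidase activity, was the one that rose at both times. It had 5.01, 4.09 and 4.28 FPKM at day 0, 8.56, 9.28 and 9.37 FPKM at day 3, and 7.71, 11.8 and 7.36 FPKM at day 21. Both later times exceeded day 0. Its rise was 1.96-fold at day 3 (0.97 ± 0.17, edgeR adjusted p = 0.00152) and 1.84-fold at day 21 (0.88 ± 0.17, edgeR adjusted p = 0.00507, and 0.65 without day 21 replicate 2). Gstm5, a mu-class transferase, averaged 34.1 ± 0.732 FPKM at day 3 and 50.3 ± 6.55 FPKM at day 0 (SD, n = 3 each). It fell 1.53-fold (-0.61 ± 0.21, edgeR adjusted p = 0.0442), a call lost on leaving out any single library of day 0 or day 3 (edgeR adjusted p 0.0674 to 0.141). It was also lost with upper-quartile scaling, either limma fit on log2 FPKM or the replicate block (adjusted p 0.0581 to 0.0800). Without day 21 replicate 2 it was also lower at day 21 than at day 0 (-0.71, edgeR adjusted p = 0.000184).

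Nqo1, the NAD(P)H quinone reductase often read as an NRF2 target, had 8.52, 6.82 and 7.38 FPKM at day 0, 9, 9.52 and 9.24 FPKM at day 3, and 8.09, 11.6 and 7.52 FPKM at day 21. Day 3 lay just above day 0, and day 21 overlapped both. Its log2 fold change was 0.24 ± 0.16 at day 3 (edgeR adjusted p = 0.272). The transferase genes Gstm1 (75.3 to 106 FPKM), Gstp1 (86.7 to 226 FPKM) and Gsta4 (46.6 to 93.1 FPKM) were abundant in every library and passed no edgeR test with all libraries, with day 3 log2 fold changes of -0.10 ± 0.14, 0.14 ± 0.30 and -0.34 ± 0.22 (edgeR adjusted p = 0.585, 0.733 and 0.238). Gstp1 is uncertain, since 33.7% of its 50-base stretches also occur in its near-identical neighbour Gstp2. Without day 21 replicate 2, Gsta4 was lower at day 3 and day 21 than at day 0 (edgeR adjusted p = 0.00999 and 0.0269). The same setting called Nqo1 (-0.30, edgeR adjusted p = 0.0483), Mgst1 (-0.32, edgeR adjusted p = 0.0144) and Gstp1 (-0.43, edgeR adjusted p = 0.0344) lower at day 21 than at day 3. With limma voom and sample weights on all libraries, Gsta4 was called lower at day 3 (-0.26, adjusted p = 0.0102) and Nqo1 and Gstp1 higher at day 3 (adjusted p = 0.0128 and 0.0475), and edgeR on only the 2 times called Gsta4 lower at day 3 (adjusted p = 0.0170).

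Ucp2 encodes a mitochondrial carrier linked to lower superoxide output (chr7:100493337-100502020, plus strand). It had 6.01, 6.34 and 6.16 FPKM at day 0, 30.3, 29.2 and 31.0 FPKM at day 3, and 14.9, 23.1 and 14.4 FPKM at day 21. None of the 3 times overlapped. Ucp2 rose 4.71-fold at day 3 (2.24 ± 0.17, edgeR adjusted p = 8.51e-06) and 2.59-fold at day 21 (1.37 ± 0.17, edgeR adjusted p = 0.000391), and was lower at day 21 than at day 3 (-0.86 ± 0.16, edgeR adjusted p = 0.00485). Ucp2 had 1.14 against day 0 and -1.1 against day 3 without day 21 replicate 2 (edgeR adjusted p = 8.89e-07 and 1.8e-06). Per 100 FPKM of the macrophage marker mean it had 165 to 175 FPKM at day 0, 77.5 to 81.0 at day 3 and 56.0 to 74.4 at day 21, with no overlap.

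Msrb1, which reduces oxidised methionine, averaged 20.2 ± 5.41 FPKM at day 0, 35.0 ± 0.192 FPKM at day 3 and 22.8 ± 9.94 FPKM at day 21 (SD, n = 3 each). Its rise at day 3 (0.75 ± 0.27, edgeR adjusted p = 0.0483) was lost without day 0 replicate 2 or 3 or any day 3 library (edgeR adjusted p 0.102 to 0.154). It was also lost with RLE or upper-quartile scaling, no filter on low counts or the replicate block (edgeR adjusted p 0.0508 to 0.0804). Day 21 against day 3 gave -0.70 ± 0.27 (edgeR adjusted p = 0.0838), and -1.09 with edgeR adjusted p = 0.000553 without day 21 replicate 2. Ogg1, which cuts oxidised guanine out of DNA, ranged from 0.907 to 1.76 FPKM and passed no test, with 0.22 ± 0.17 at day 3 (edgeR adjusted p = 0.340) and 0.32 ± 0.17 at day 21 against day 0 (edgeR adjusted p = 0.197).

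Side by side, the 6 oxidase genes moved further than the 29 protective ones. The 14 tested further oxidase and oxidant-producing genes, counted below, had lower medians than these 6. Their median log2 fold change was 0.97 at day 3 and 0.11 at day 21 against day 0 (0.34 without day 21 replicate 2). At day 3 all 6 oxidase genes rose, with a median log2 fold change of 3.49, while 14 of 29 protective genes rose and 2 fell, with a median of 0.43, beside 0.0081 over all tested genes. The protective shares were 48.3% and 6.90%, where 24.8% of all tested genes rose and 19.5% fell. By day 21 the 6 oxidase genes had a median of 2.69 against day 0, and the protective genes had 6 higher, 1 lower and a median of 0.046, beside 0.018 over all tested genes. The protective share higher, 20.7%, lay near the 17.9% over all tested genes. The share lower was 3.45%, where 11.3% of all tested genes fell. Leaving out day 21 replicate 2, all 6 oxidase genes were higher and their median stayed at 2.69, while the protective genes had 7 higher, 8 lower and a median of -0.13, where 25.1% of all tested genes were called higher and 22.4% lower. Between day 21 and day 3 the medians were -0.64 for the oxidase genes, 3 of which fell, and -0.36 for the protective genes, 9 of which fell, beside 0.016 over all tested genes. Of all tested genes 16.1% fell then. The medians without day 21 replicate 2 were -0.92 for the oxidase genes, 4 of which fell and 1 rose, and -0.47 for the protective genes, 20 of which fell and 1 rose, where 25.7% of all tested genes fell and 23.5% rose.

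The sums show the same contrast in levels. The 6 oxidase genes summed to 6.87 to 9.27 FPKM at day 0, 96.2 to 103 FPKM at day 3 and 53.9 to 99.1 FPKM at day 21, with 77.4 of the 99.1 FPKM from Cyba in day 21 replicate 2. Cyba made up 56.0 to 78.1% of the oxidase sum in each library, so the sum follows mostly this gene. The 29 protective genes summed to 1023 to 1293, 1334 to 1389.8 and 964 to 1776 FPKM. Sod1, Gstp1 and Gstm1 together made up 36.0 to 49.6% of the protective sum in each library. Per 100 FPKM of protective transcript there were 0.664 to 0.716 FPKM of oxidase transcript at day 0, 7.22 to 7.45 at day 3 and 5.34 to 5.59 at day 21. The 3 ranges did not overlap, and day 21 replicate 2, at 5.58, lay between the other 2. A level of RNA is not a measure of enzyme activity.

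Genes with and without the antioxidant response element in the window shown for Ucp2, Nfe2l2, Mgst1 and Prdx1 were counted alike. At day 3 against day 0, 6 of the 9 genes with the element rose and 1 fell, with a median log2 fold change of 0.57. Over all tested genes 24.8% rose and 19.5% fell. Of the 23 genes with a window and no element 11 rose and 1 fell, with a median of 0.75. The 23 include the oxidase genes Cybb, Cyba, Ncf1 and Nox4, which all rose, whereas the 9 include no oxidase gene. By day 21, 3 of the 9 were higher than at day 0, and of the 23 there were 7 higher and 2 lower. All tested genes had 17.9% higher and 11.3% lower. Leaving out day 21 replicate 2 gave 3 of the 9 higher and 3 lower, and 9 of the 23 higher and 5 lower. All tested genes then had 25.1% higher and 22.4% lower. The 6 genes without a window in the table were Ncf4, Rac2, Sod3, Prdx6, Gsr and Gsta4.

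Other genes of the same pathways were counted from lists drawn up from general knowledge, with earlier results of these data known. Over all tested genes 24.8% rose and 19.5% fell at day 3, and 17.9% rose and 11.3% fell at day 21, all against day 0. The day 21 shares without day 21 replicate 2 were 25.1% and 22.4%. Of 14 tested further oxidase and oxidant-producing genes, 8 rose and 1 fell at day 3, and 4 rose at day 21 against day 0 by edgeR, which is 57.1% and 7.14% at day 3 and 28.6% at day 21. The day 21 count without day 21 replicate 2 was 6 higher. Hvcn1, the proton channel that balances the charge moved by the oxidase, averaged 0.859 ± 0.0209 FPKM at day 0, 6.12 ± 0.191 FPKM at day 3 and 7.80 ± 0.824 FPKM at day 21 (SD, n = 3 each), a rise of 6.87-fold at day 3 (edgeR adjusted p = 3.53e-07) and 8.32-fold at day 21 (edgeR adjusted p = 8.28e-07). Xdh, xanthine dehydrogenase, rose 5.67-fold at day 3 and 2.56-fold at day 21 (edgeR adjusted p = 1.6e-06 and 0.000164). Maob, a monoamine oxidase of the outer mitochondrial membrane, fell 1.28-fold at day 3 (edgeR adjusted p = 0.04), lost in 5 of the 9 fits that left out 1 library (edgeR adjusted p 0.0528 to 0.151).

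Of 23 further NRF2 regulators and targets 10 rose and 2 fell at day 3, and 7 rose and 1 fell at day 21, which is 43.5% and 8.70% at day 3 and 30.4% and 4.35% at day 21. Day 21 without its replicate 2 had 10 higher and 5 lower. Hmox1, heme oxygenase, had 3.25, 3.89 and 3.57 FPKM at day 0, 224, 224 and 233 FPKM at day 3, and 10.5, 12.5 and 9.39 FPKM at day 21. No times overlapped. Its rise of 61.4-fold at day 3 (5.94 ± 0.15, edgeR adjusted p = 4.41e-08) exceeded that of each of the 38 genes, and day 21 stood 2.77-fold over day 0 (1.47 ± 0.13, edgeR adjusted p = 5.44e-05). Ftl1, the ferritin light chain, rose 8.67-fold and 3.55-fold (edgeR adjusted p = 6.57e-06 and 0.000354). The 8 erythroid markers summed to 15.2 to 33.7, 34.0 to 37.1 and 33.3 to 96.5 FPKM at day 0, 3 and 21, and their part in the Hmox1 and Ftl1 values was not tested. Cbr1, a carbonyl reductase, fell 1.48-fold at day 3 (edgeR adjusted p = 0.0112). Gclc, the catalytic subunit of the first step of glutathione synthesis, fell 1.34-fold (edgeR adjusted p = 0.0273), lost in 5 of 9 such fits (edgeR adjusted p 0.0690 to 0.0937).

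Of 19 tested further peroxidase, thioredoxin and glutaredoxin genes 3 rose and 4 fell at day 3, and 2 rose and 1 fell at day 21. The day 3 shares, 15.8% and 21.1%, lay below and near those over all tested genes, and without day 21 replicate 2 the day 21 counts were 2 higher and 9 lower. Msrb3, a methionine sulfoxide reductase, rose 2.53-fold at day 3 (edgeR adjusted p = 8.01e-05), and Selenop, the selenium carrier, 1.30-fold (edgeR adjusted p = 0.00847). Glrx2, a mitochondrial glutaredoxin, fell 1.77-fold (edgeR adjusted p = 0.00717), and Oxr1, an oxidation resistance gene, 1.63-fold (edgeR adjusted p = 0.0104). Of 18 tested further glutathione transferase genes 6 rose and 2 fell at day 3 (33.3% and 11.1%), and 4 rose at day 21 (22.2%). Day 21 without its replicate 2 had 4 higher and 2 lower. Hpgds, a prostaglandin D synthase of the transferase family, rose 6.64-fold at day 3 and 10.0-fold at day 21 (edgeR adjusted p = 7.73e-06 and 7.53e-06). Gstm2 rose 6.31-fold and 3.00-fold (edgeR adjusted p = 9.82e-06 and 0.000608), while its relative Gstm7 fell 2.18-fold at day 3 (edgeR adjusted p = 0.00373). Gstz1 fell 1.27-fold (edgeR adjusted p = 0.0387), lost in 6 of 9 such fits (edgeR adjusted p 0.0544 to 0.14).

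NADPH supply beyond G6pdx had 4 of 11 genes higher and 1 lower at day 3 (36.4% and 9.09%), and 2 higher and 1 lower at day 21 (18.2% and 9.09%). The fit without day 21 replicate 2 called 4 higher and 3 lower at day 21. Pgd, the second NADPH-forming enzyme of the pentose phosphate pathway, rose 2.41-fold at day 3 (edgeR adjusted p = 4.51e-05). Pgls, which acts between G6pdx and Pgd, rose 2.36-fold (edgeR adjusted p = 0.0137, and 0.0558 without day 0 replicate 2). Mthfd1, a folate enzyme, fell 1.32-fold (edgeR adjusted p = 0.0229), lost in 4 of 9 such fits (edgeR adjusted p 0.0706 to 0.0903). Among 10 further genes of oxidised base repair 2 rose at day 3 (20%, near the share over all tested genes), with Xrcc1, a scaffold of strand break repair, at 1.47-fold (edgeR adjusted p = 0.0230), lost in 5 of 9 such fits (edgeR adjusted p 0.0544 to 0.103). At day 21 1 rose and 1 fell, which was Parp1, a sensor of strand breaks, at 1.39-fold lower (edgeR adjusted p = 0.0111). The fit without day 21 replicate 2 called 1 higher and 2 lower there.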

How the data were processed

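RNA of 9 spinal cord libraries was sequenced, and the authors deposited whole-number counts and FPKM per gene, per the file headers. The deposited FPKM equals count over length and library total, with a deviation of at most 0.000927% over 12001 genes. HISAT2 and StringTie are named in the submitters' processing notes, without versions, and the build there is GRCh38 although the organism is mouse. Gene loci match GENCODE M21 (GRCm38) for 29 of the 38 genes. The sources used here do not say whether counting used strand, so overlapping antisense transcripts cannot be told apart. They cover under 20% of the exon bases of each of the 38 genes.

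Counts were tested with edgeR 4.0.16 in R 4.3.3 (TMM scaling, default expression filter, robust quasi-likelihood, all 9 libraries, group as the only term, 6 residual degrees of freedom). Calls rest on two-sided p-values adjusted over all 16494 tested genes by the Benjamini-Hochberg method, with a threshold of 0.05. SE is the log2 fold change divided by the square root of F. FPKM is scaled by library total and fold changes by TMM, so small differences may not share a sign. The fit was also run on simulated counts with the same spread for every gene and no outlying library. That run does not cover a library such as day 21 replicate 2. DESeq2 1.42.0, limma 3.58.1, other scalings, filters and single libraries left out were the alternatives. The 38 genes and all lists were chosen with earlier results of these data known. All 38 are named. Of each further list the called genes at 1 FPKM or more with the highest change are named, up to 2 in each direction. Library titles gave the groups, and N was taken as day 0 from the series design.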

Additional observations from a re-analysis of the deposited data

How the results depend on the processing

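Of 114 comparisons of a gene between 2 times, 53 were called, 45 of them under all 19 alternatives, and no called one changed direction under any of the 19. Of the others, 30 gained a call under at least 1. The number of genes lower at day 3 against day 0 (2) became 1 with upper-quartile scaling, either limma fit or the replicate block and 4 with voom weights, and leaving out 1 library gave 1 to 3. The 2 genes lower at day 21 than at day 0 became 1 with upper-quartile scaling, either limma fit, only 2 groups or the block and 8 with voom weights, with 1 to 9 on leaving out a library. The 0 genes higher at day 21 than at day 3 became 1 with DESeq2 or limma and 2 with upper-quartile scaling or voom weights, with 0 to 2 without a library, and the 14 lower became 29 with voom weights, with 11 to 26. The oxidase medians with limma on log2(FPKM + 1), which shrinks low genes, were 2.20 at day 3 and 1.77 at day 21 against day 0, and voom weights gave -0.92 at day 21 against day 3. Without a library they ranged over 3.39 to 3.65, 2.57 to 2.98 and -0.92 to -0.50.

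These uncalled genes changed sign, and the cause was not tested. For day 21 against day 0, upper-quartile scaling gave Sod1 0.085, Prdx5 0.026 and Gsta4 0.092, and Gsta4 had 0.073 with either limma fit, 0.0023 with 2 groups and 0.007 with a stricter filter. Leaving out a library gave -0.56 to 0.24 for Sod1, -0.61 to 0.20 for Prdx5 and -0.33 to 0.13 for Gsta4. For day 21 against day 3, Prdx2 had 0.0036 and 0.0051 with limma (pseudocount 0.1 and 1), 0.015 without a filter, 0.025 with 2 groups and 0.10 with upper-quartile scaling. That scaling also gave Prdx3 0.057, Gss 0.058, Nqo1 0.0029 and Mgst1 0.018, limma (pseudocount 1) gave Gss 0.0012, and voom weights gave Sod1 -0.29 and Gstp1 -0.37. Leaving out a library gave -0.36 to 0.43 for Sod1, -0.33 to 0.13 for Prdx2, -0.30 to 0.096 for Prdx3, -0.26 to 0.043 for Gss, -0.30 to 0.0017 for Nqo1, -0.43 to 0.31 for Gstp1 and -0.32 to 0.021 for Mgst1.

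Replicate numbers showed no clear pairing of libraries, as 9 same-numbered pairs correlated at -0.146 to 0.107 and 1 was over 0.1. The highest correlation, 0.227, was between day 21 replicate 2 and day 0 replicate 1. With 3 libraries per time these values cannot exclude a pairing. The block moved the calls at day 3 to 21 higher and 1 lower, and Gstp1 at day 21 against day 3 to -0.016.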
